A study of Mus musculus with 9 samples.

Results

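Ly9, Inpp5d, Enpp2, Rbp4, Mme and Pmp22 were examined as a group of 6 genes in LLC cells with and without CD47. They were selected by name, on their large shifts in normalised counts between WT cells and both CD47 KO clones, and no threshold of size was stated for that selection. They are 6 of the 50813 genes listed in the count table and of the 14593 genes that held enough counts to be tested. Ly9 reached that filter through its WT libraries, since the clones held almost none of its reads. All but 1 of their products are membrane or secreted proteins, whereas Inpp5d encodes an intracellular enzyme that is recruited to receptors, so the group is described here by its gene names.

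RNA-seq was performed on polyadenylated RNA of LLC (Lewis lung carcinoma) cells, a mouse line that here stably expresses luciferase. WT cells, KO clone E3 and KO clone E5 gave 3 libraries each, 9 in all, from cells in culture. The replicates of a line are independent biological ones per the methods. Both KO lines were made from LLC cells by electroporation of Cas9 ribonucleoproteins with a guide to the Cd47 coding sequence, followed by clonal expansion. WT was 1 line and each KO line was 1 clone, so the effect of the genotype and that of the clone cannot be told apart.

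The 6 genes act at different points between a cell and its surroundings. Ly9 is a homophilic receptor of the SLAM family on lymphocytes, and Inpp5d encodes SHIP1, a lipid phosphatase of blood cells that removes a phosphate from the product of phosphoinositide 3-kinase. Enpp2 encodes autotaxin, the secreted enzyme that makes the signalling lipid lysophosphatidic acid (LPA), and Rbp4 encodes the carrier of retinol in blood plasma. Mme encodes neprilysin, or CD10, a peptidase of the cell surface that degrades small peptides outside the cell, and Pmp22 encodes a membrane protein of myelin and of epithelial junctions that was first found as a gene of growth arrest.

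The DNA upstream of these genes is shown first, because the group fell into promoters poor and rich in CpG dinucleotides. In the GENCODE annotation of GRCm39, the 250 bases before the start of the canonical transcript held 3 CpG in Ly9, 5 in Inpp5d, 3 in Enpp2 and 2 in Pmp22, against 25 in Rbp4 and 24 in Mme. Across 14538 tested genes the median was 12, with quartiles at 6 and 19. The 4 CpG-poor windows are printed 5′ to 3′ on the strand of the gene, with each CpG in capitals and without bases that belong to an annotated exon of the gene. They lie at chr1:171434979-171435228 on the minus strand (Ly9), chr1:87547784-87547988 on the plus strand (Inpp5d, 205 bases), chr15:54784107-54784356 on the minus strand (Enpp2) and chr11:63021367-63021616 on the plus strand (Pmp22), the latter 2 within the span that the count table gives for the gene.
Ly9: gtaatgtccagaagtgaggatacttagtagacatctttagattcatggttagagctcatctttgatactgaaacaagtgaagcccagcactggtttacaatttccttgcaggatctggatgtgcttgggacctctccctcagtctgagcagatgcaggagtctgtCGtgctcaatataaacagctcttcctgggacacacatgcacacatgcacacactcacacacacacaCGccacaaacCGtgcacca
Inpp5d: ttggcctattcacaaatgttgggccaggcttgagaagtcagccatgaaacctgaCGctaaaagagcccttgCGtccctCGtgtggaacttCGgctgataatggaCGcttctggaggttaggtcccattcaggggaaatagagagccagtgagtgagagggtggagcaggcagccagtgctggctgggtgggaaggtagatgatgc
Enpp2: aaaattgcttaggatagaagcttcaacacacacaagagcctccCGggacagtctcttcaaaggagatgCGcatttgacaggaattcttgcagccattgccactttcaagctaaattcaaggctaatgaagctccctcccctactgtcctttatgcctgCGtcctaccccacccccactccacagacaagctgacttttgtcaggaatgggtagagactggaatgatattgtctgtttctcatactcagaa
Pmp22: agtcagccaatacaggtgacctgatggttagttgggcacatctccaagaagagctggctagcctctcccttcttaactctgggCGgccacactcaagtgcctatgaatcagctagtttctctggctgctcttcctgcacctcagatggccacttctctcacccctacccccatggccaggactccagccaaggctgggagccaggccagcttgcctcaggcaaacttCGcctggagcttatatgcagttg
The windows of Rbp4 and Mme overlap annotated exons over 168 and 207 bases and are not printed. Of the 4 CpG-poor genes, 3 were lower in the clones and 1 was higher. Of the CpG-rich pair, Rbp4 was lower and Mme was higher. These classes rest on the start of the canonical transcript alone, with 68 transcripts annotated for Enpp2, 27 for Pmp22 and 15 for Inpp5d.

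Short motifs were searched on both strands of the same 250-base windows. TGANTCA, which takes in the AP-1 letters TGAGTCA but lets any base stand at N, stood in 4.76% of the 14538 windows. It stood in those of Rbp4, Mme and Pmp22, at positions -125, -113 and -147 from the start. Rbp4 and Mme held TGAGTCA, whereas Pmp22 held TGAATCA, which is not an AP-1 site. TATAAA stood in 8.05% of windows and in those of Ly9 and Rbp4, and CCAAT stood in 35.9% and in those of Mme and Pmp22. TGACGTCA (CRE), GCGNGGGCG (EGR), CACGTG (E-box) and CCGGAAGT (ETS) stood in 1.94%, 6.20%, 7.30% and 3.93% of windows and in none of the 6. These matches describe letters in a window and not bound sites, and the start sites used in LLC cells were not measured.

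Total counts per library ranged from 44257404 to 55095219. Levels are given as CPM, counts scaled to library sizes of equal depth by the TMM method, and SDs are over the 3 libraries of a line. The edited gene checked the labels: Cd47 stood at 179 to 187 CPM in WT cells, 36.7 to 49.6 in clone E3 and 15.5 to 18.6 in clone E5. Of 7 lung epithelial markers, Epcam, Nkx2-1 and Sftpc had no count in any library, and the summed level, almost all from Krt8 and Krt18, was 451 to 459 CPM in WT cells, 127 to 199 in clone E3 and 896 to 958 in clone E5. Of 6 mesenchymal markers, all tested, 1 was a DEG higher in clone E3 and 0 were lower (median log2 fold change 0.68). In clone E5, 0 were higher and 2 were lower (median -0.61). The shares over all tested genes were 5.43% higher and 4.39% lower in E3, and 2.69% higher and 5.52% lower in E5. The part of these markers in the levels of the 6 genes was not tested. Replicate 3 of clone E3 stood apart from the other libraries of its clone, with chi-square values of 192 and 232, divided by their degrees of freedom, against 30.5 for replicates 1 and 2, and the comparisons between the clones that it turns or ends are also given without it.

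In all 6 genes, every library of both clones lay on one side of every WT library. How often this held over all tested genes was not counted. It also held for genes beside them on the chromosome that passed no fold threshold, such as Ncstn and Atg16l1. In both of these the clones did not overlap with each other either, though neither was a DEG between the clones. Ly9, Inpp5d, Enpp2 and Rbp4 were lower in both clones, and Mme and Pmp22 were higher. Among all genes tested, 1.60% were differentially expressed genes (DEGs) lower in both clones and 0.953% were DEGs higher in both, where a DEG has a false-discovery rate (FDR) below 0.05 and a log2 fold change beyond 1 in either direction. Since the genes were selected on these same differences, their values against WT are descriptions and carry no test. Both clones are compared with the same WT libraries. In bulk RNA, fewer cells that express a gene and less RNA per cell cannot be told apart.

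**Figure D1:**
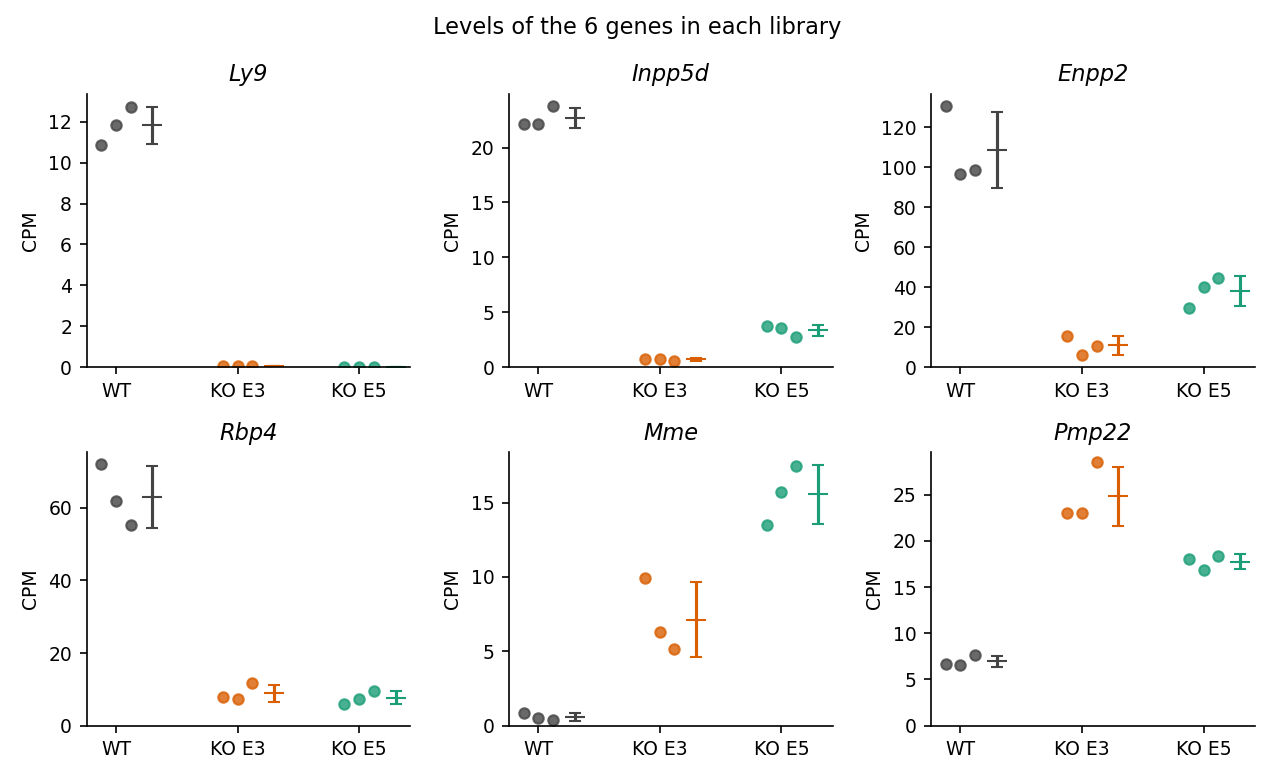
Level of each gene in CPM (linear axis from 0) in the 9 libraries, with 1 point per library and the mean ± SD beside each line (n = 3). Ly9, Inpp5d, Enpp2 and Rbp4 are high in WT cells, with means of 11.8, 22.7, 109 and 63.0 CPM, and Mme and Pmp22 are low, at 0.582 and 6.97 CPM.

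Ly9 (ENSMUSG00000004707.15, chromosome 1, 171416192 to 171434978) was the gene closest to a full loss. It had 543, 564 and 603 counts in WT replicates 1 to 3, 2, 3 and 2 counts in clone E3, and 1, 0 and 0 counts in clone E5. The WT level was 11.8 ± 0.926 CPM (SD, n = 3). Both clones were at the detection limit, set at 3 counts per library, so that Ly9 was at least 187-fold lower in clone E3 and at least 192-fold lower in clone E5 than in WT cells. At this depth no difference between the clones could be measured.

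The other receptors of the SLAM family were almost absent from LLC cells in every line. Slamf1, Cd48, Cd84, Slamf6, Slamf7 and the adaptor Sh2d1a had no counts in any library, and of 11 listed family members and adaptors only 2 were tested. Fyn, the Src family kinase that SLAM receptors recruit through their adaptor, fell from 136 ± 4.84 CPM in WT cells to 36.2 ± 3.35 in E3 and 48.1 ± 11.2 in E5 (SD, n = 3). Its log2 fold changes were -1.92 (standard error 0.16, FDR = 2.7e-05) and -1.50 (standard error 0.16, FDR = 9.1e-05) by edgeR's quasi-likelihood test. The adaptor Sh2d1b1 was a DEG higher in clone E5 at a low level, from 0.173 to 0.589 CPM, and that call was lost in 9 of 16 alternative settings (log2 fold changes 0.97 to 2.09), among them those without any 1 of the WT libraries, of replicates 1 and 2 of clone E3 or of replicates 1 and 2 of clone E5. Markers of leukocytes were near 0: of 16 genes, 12 had at most 3 counts in every library, Ptprc (CD45) had at most 2, and their summed level was 0.681 to 0.865 CPM in WT cells, 0.296 to 0.682 in clone E3 and 0.347 to 0.740 in clone E5.

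Inpp5d (ENSMUSG00000026288.15, chromosome 1, 87548034 to 87648229) was lower in both clones and differed between them. Its level was 22.2, 22.1 and 23.8 CPM in WT cells, 0.740, 0.782 and 0.594 in clone E3, and 3.71, 3.54 and 2.79 in clone E5. The 3 lines did not overlap, with WT cells highest and clone E3 lowest. The level was 32.0-fold lower in clone E3 (log2 fold change -5.00) and 6.79-fold lower in clone E5 (-2.76). Between the clones, which the selection did not compare, it was 4.71-fold higher in E5 (log2 fold change 2.24, 95% interval 1.87 to 2.60, FDR = 5.1e-06).

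Of 28 tested genes around phosphoinositide 3-kinase, 1 was a DEG higher and 1 lower in each clone. Over all tested genes the DEG shares were 5.43% higher and 4.39% lower in clone E3, and 2.69% higher and 5.52% lower in clone E5. Pik3r5, a regulatory subunit of the class IB kinase, fell in both clones, from 1.03 CPM in WT cells to 0.494 in clone E3 (log2 fold change -1.05, FDR = 0.0121) and 0.213 in clone E5 (-2.27, FDR = 0.00036). Its call in clone E3 was lost under upper-quartile scaling, without WT replicate 2 and without replicate 3 of clone E3 (log2 fold changes down to -0.84). Pik3r3, another regulatory subunit, rose in clone E3 alone among the DEG calls (log2 fold change 1.26, FDR = 0.00154), against 0.19 (FDR = 0.600) in clone E5, and the difference between the clones was itself a DEG call at -1.08 (FDR = 0.00341), reaching -0.95 and losing that call without replicate 1 or 2 of clone E3 or replicate 3 of clone E5. The phosphatase Inpp4b, which acts on the product of SHIP1, rose from 4.79 to 19.5 CPM in clone E5 (log2 fold change 2.02, FDR = 0.00144) and stood at 3.47 CPM in clone E3 (-0.46, FDR = 0.323).

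Enpp2 (ENSMUSG00000022425.17, chromosome 15, 54702297 to 54816288) had the highest count of the 6 in WT cells. Its level was 131, 96.5 and 98.6 CPM in WT cells, 15.8, 5.98 and 10.8 in clone E3, and 29.8, 40.0 and 44.3 in clone E5. The lines did not overlap, and the order was the same as for Inpp5d. The level was 10.0-fold lower in clone E3 (log2 fold change -3.32) and 2.85-fold lower in clone E5 (-1.51). Between the clones, Enpp2 was 3.51-fold higher in E5 (log2 fold change 1.81, 95% interval 1.15 to 2.47, FDR = 0.00121).

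None of the tested LPA receptor genes was a DEG against WT in either clone. Of 10 LPA pathway and ENPP family genes tested, 1 was a DEG higher in clone E3 and 0 were lower, whereas 1 was higher and 3 were lower in clone E5. The shares over all tested genes were 5.43% and 4.39% in E3, and 2.69% and 5.52% in E5. Lpar1, which encodes an LPA receptor, stood at 47.4 CPM in WT cells, 81.4 in clone E3 (log2 fold change 0.78, FDR = 0.00026) and 55.7 in clone E5 (0.23, FDR = 0.116), below the fold threshold in both. The 3 that fell in clone E5 were relatives of Enpp2 that do not make LPA as their main product: Enpp3 (log2 fold change -2.28, FDR = 0.0129), Enpp4 (-1.53, FDR = 0.00105) and Enpp5 (-1.13, FDR = 0.00999). The Enpp3 call was lost without replicate 1 or replicate 3 of clone E5, with log2 fold changes of -2.95 to -1.93 over the alternatives. Enpp4 stood at 6.43 CPM in clone E3 and 1.35 in clone E5, a difference that passed the test (log2 fold change -2.25, FDR = 5.6e-05). Liph, a lipase that makes LPA from phosphatidic acid, was a DEG higher in both clones (log2 fold changes 2.10 and 1.69, FDR = 0.00944 and 0.0411) but had at most 22 counts in any library, and its call in clone E5 was lost in 8 of 16 alternative settings (1.20 to 2.21), among them those without WT replicate 1 or 2, replicate 1 of clone E3, or replicate 1 or 2 of clone E5.

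Rbp4 (ENSMUSG00000024990.14, chromosome 19, 38105077 to 38113729) was lower to a like extent in both clones. Its level was 72.1, 61.9 and 55.1 CPM in WT cells, 7.96, 7.25 and 11.6 in clone E3, and 6.03, 7.42 and 9.67 in clone E5. The clones overlapped with each other and lay well below WT cells. The level was 7.05-fold lower in clone E3 (log2 fold change -2.82) and 8.16-fold lower in clone E5 (-3.03). The difference between the clones was -0.21 (95% interval -0.68 to 0.26, FDR = 0.478), and 0.03 (FDR = 0.901) without replicate 3 of clone E3.

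Genes of retinol transport and retinoic acid included 2 that were DEGs lower in both clones, against 1.60% of all tested genes. Crabp1 kept both calls under all alternatives, and Stra6 did not. Of 15 tested, 2 were DEGs higher and 2 lower in clone E3 (5.43% and 4.39% of all tested genes), and 0 were higher and 3 lower in clone E5 (2.69% and 5.52%). Crabp1, which binds retinoic acid inside the cell, fell from 5.59 ± 0.338 CPM in WT cells to 0.440 ± 0.247 in clone E3 (log2 fold change -3.67, FDR = 1.9e-05) and 2.43 ± 0.321 in clone E5 (-1.20, FDR = 0.00555), and the clones differed by 2.47 (FDR = 0.00016). Stra6, the membrane receptor of Rbp4, fell from 0.417 CPM to 0.118 (log2 fold change -1.80, FDR = 0.0330) and 0.0596 (-2.73, FDR = 0.0114), on at most 32 counts per library, and its calls were lost in 5 and 4 of 16 alternative settings (-2.43 to -1.32 and -3.20 to -2.28). For Stra6 these included leaving out WT replicate 1, WT replicate 2 or replicate 2 of clone E3 for clone E3, and WT replicate 1 or replicate 1 or 2 of clone E5 for clone E5. Dhrs3, a reductase of retinal, and the receptor gene Rarb were DEGs higher in clone E3 (log2 fold changes 1.37 and 1.47), and Crabp2 was a DEG lower in clone E5 (-2.47, FDR = 0.00278). The Rarb call was lost in 5 of 16 alternative settings (1.30 to 1.67), among them those without any 1 of the WT libraries or without replicate 1 of clone E3. Ttr, the plasma partner of Rbp4, and Lrat had no counts, and of 4 hepatocyte markers 3 had none either.

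Mme (ENSMUSG00000027820.13, chromosome 3, 63148958 to 63293451) was the gene with the larger rise. Its level was 0.861, 0.484 and 0.401 CPM in WT cells (43, 23 and 19 counts), 9.94, 6.30 and 5.15 in clone E3, and 13.5, 15.7 and 17.5 in clone E5. The lines did not overlap, and clone E5 was highest. The level was 12.1-fold higher in clone E3 (log2 fold change 3.60) and 26.5-fold higher in clone E5 (4.73). Between the clones it was 2.18-fold higher in E5 (log2 fold change 1.12, 95% interval 0.56 to 1.69, FDR = 0.00732), and without replicate 3 of clone E3 the difference was 0.95 (FDR = 0.00272), under the fold threshold.

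Of 8 other peptidases of the cell surface tested, 2 were DEGs higher and 2 lower in clone E3 (5.43% and 4.39% of all tested genes), and 2 were higher and 1 lower in clone E5 (2.69% and 5.52%). Anpep was called in opposite directions in the clones, and Cpm was called lower in both. Anpep, the aminopeptidase CD13, fell from 12.4 ± 0.790 CPM in WT cells to 3.55 ± 0.445 in clone E3 (log2 fold change -1.81, FDR = 4.9e-06) and rose to 46.7 ± 0.969 in clone E5 (1.91, FDR = 1.3e-06), and the difference between the clones was 3.71 (FDR = 1.2e-08). Phex, the relative of Mme that is mutated in inherited hypophosphataemia, rose from 12.4 to 49.0 CPM in clone E5 (log2 fold change 1.99, FDR = 1.8e-05) and stood at 8.34 in clone E3 (-0.57, FDR = 0.0258). Fap, a peptidase of activated fibroblasts, rose in clone E3 to 1.81 CPM (log2 fold change 5.37, FDR = 9.4e-05) from 0.0418 in WT cells, near the detection limit, and had no counts in clone E5. Ace rose in clone E3 (log2 fold change 1.13, FDR = 0.0297), a call lost in 6 of 16 alternative settings (0.84 to 1.38), among them those without any 1 of the WT libraries or replicate 1 of clone E3. The carboxypeptidase gene Cpm was a DEG lower in both clones on at most 24 counts per library, at least 7.23-fold in clone E3, and its call in clone E5 was lost in 7 of 16 alternative settings (-2.04 to -1.24), among them those without any 1 of the WT libraries or replicate 1 or 3 of clone E5.

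Pmp22 (ENSMUSG00000018217.13, chromosome 11, 63019808 to 63050373) had the smallest shift of the 6. Its level was 6.63, 6.58 and 7.68 CPM in WT cells, 23.0, 23.1 and 28.5 in clone E3, and 18.0, 16.8 and 18.4 in clone E5. The lines did not overlap, and clone E3 was highest. The level was 3.57-fold higher in clone E3 (log2 fold change 1.83) and 2.54-fold higher in clone E5 (1.35). The difference between the clones had an FDR of 0.00999 but was small (log2 fold change -0.49, 95% interval -0.75 to -0.23), so it was not a DEG call.

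No relative of Pmp22 or gene of growth arrest was a DEG in the same direction in both clones. Of 12 tested genes of the PMP22 family, myelin and growth arrest, 2 were DEGs higher and 1 lower in clone E3 (5.43% and 4.39% of all tested genes), and 0 were higher and 2 lower in clone E5 (2.69% and 5.52%). Emp1, a relative of Pmp22, stood at 211 CPM in WT cells, 347 in clone E3 (log2 fold change 0.72, FDR = 0.00029) and 368 in clone E5 (0.80, FDR = 0.00014), below the fold threshold. Tmem47, a junction protein of the same family, rose from 8.95 to 50.4 CPM in clone E3 (log2 fold change 2.49, FDR = 1.4e-05) and had no counts in clone E5, at least 145-fold below WT cells. Gas7 rose in clone E3 (log2 fold change 1.62, FDR = 0.0189), a call lost in 6 of 16 alternative settings (1.35 to 2.02), among them those without any 1 of the WT libraries or replicate 1 or 2 of clone E3, and fell in clone E5 (-3.74, FDR = 0.00127). Gas6, a ligand of TAM receptors, was at least 4.38-fold lower in clone E3 on at most 24 counts per library. Schwann cell markers were low in all lines, summing to 1.10 to 1.83 CPM over the 9 libraries, and Sox10 had no counts.

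Over the 6 lists together, 75 of 119 genes were tested, and 8 were DEGs higher and 7 lower in clone E3. In clone E5, 5 were higher and 11 were lower. Among all tested genes 5.43% were DEGs higher and 4.39% lower in clone E3, and 2.69% were higher and 5.52% lower in clone E5. The median log2 fold change over the 75 genes was 0.11 in clone E3 and 0.05 in clone E5, the latter 0.08 when genes at the detection limit took their bounds, against 0.01 and -0.00 over all tested genes. The lists were written with earlier results of these libraries known.

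**Figure D2:**
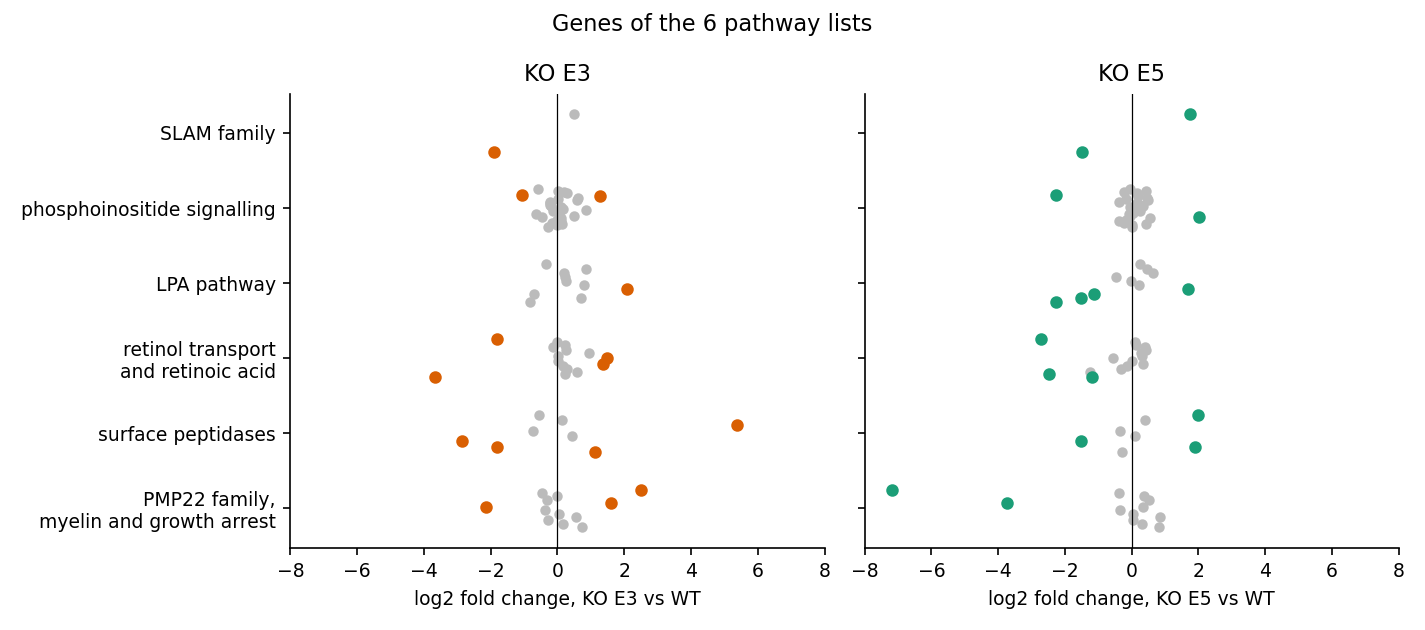
Log2 fold change against WT for the 75 tested genes of the 6 pathway lists in clone E3 (left) and clone E5 (right), 1 point per gene, with DEGs coloured and the rest grey. Genes with at most 3 counts in every library of 1 line are drawn at their bound, and Fap is left out on the right because both lines are near the detection limit there. Clone E3 shows 8 DEGs above 0 and 7 below, and clone E5 shows 5 above and 11 below.

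Set side by side, the clones were not alike in these genes. Clone E5 lay nearer to WT cells than clone E3 for Inpp5d and Enpp2, and farther from WT cells for Mme. Of the 6 genes, 3 were DEGs higher in E5 than in E3 and 0 were lower, against 3.49% and 7.52% of all tested genes. The genes were selected for large shifts in both clones, so this count is a description and carries no test. The Mme call was lost without replicate 3 of clone E3 (log2 fold change 0.95). Rbp4 and Pmp22 were not DEGs between the clones, and Ly9 was at the detection limit in both.

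**Figure D3:**
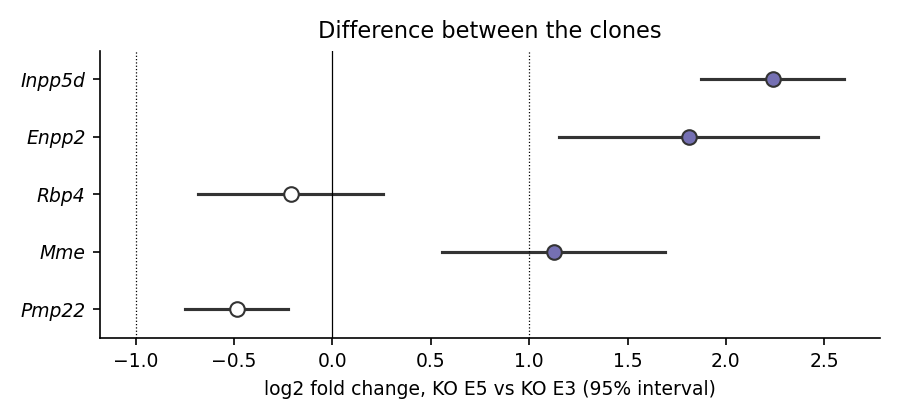
Log2 fold change of clone E5 against clone E3 for the 5 genes that could be measured in both clones, with the 95% interval as a line and the fold threshold as dotted lines. Filled points are DEGs: Inpp5d at 2.24, Enpp2 at 1.81 and Mme at 1.12; Rbp4 at -0.21 and Pmp22 at -0.49 are open.

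**Figure D4:**
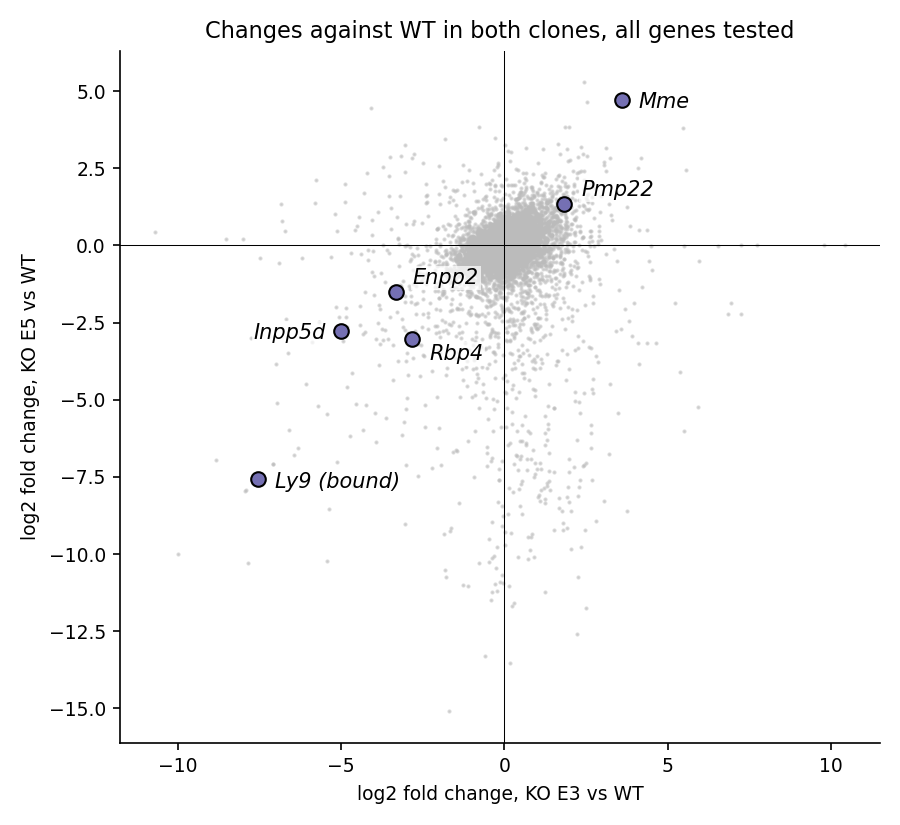
Log2 fold change against WT in clone E3 (horizontal) and clone E5 (vertical) for all 14593 tested genes in grey and the 6 genes marked, with Ly9 at its bounds of -7.55 and -7.58. Grey points are fitted values, which depend on the prior count where a line has no counts; Mme lies at 3.60 and 4.73 and Enpp2 at -3.32 and -1.51.

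Levels can be compared between genes only per length, so CPM was divided by the length of the annotated exons in kb to give RPKM. In WT cells the order was Rbp4 (44.2 RPKM), Enpp2 (12.7), Ly9 (3.55), Inpp5d (2.81), Pmp22 (1.70) and Mme (0.0491). Among 14538 tested genes with a length, Enpp2 was at percentile 79.0 and Mme at percentile 3.46. In clone E3 the order was Rbp4 (6.27 RPKM), Pmp22 (6.06), Enpp2 (1.27), Mme (0.601), Inpp5d (0.0872) and Ly9 (0.0148). In clone E5 it was Rbp4 (5.40), Enpp2 (4.44), Pmp22 (4.32), Mme (1.31), Inpp5d (0.414) and Ly9 (0.00216). In clone E3 the order of Rbp4 and Pmp22 rested on replicate 3: Rbp4 stood at 5.58, 5.08 and 8.15 RPKM and Pmp22 at 5.60, 5.62 and 6.95, and without replicate 3 the means were 5.33 and 5.61. In clone E5 the libraries of Rbp4, from 4.23 to 6.78 RPKM, overlapped those of Enpp2 and Pmp22, so these neighbours in the order did not differ beyond their spread. Mme reached percentile 23.9 in clone E3 and 33.9 in clone E5.

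The spread between replicates differed among the genes. In clone E3 the coefficient of variation was 45.2% for Enpp2, 35.1% for Mme and 26.3% for Rbp4, against 14.0% for Inpp5d and 12.8% for Pmp22. In WT cells it was 42.2% for Mme, which rested on 19 to 43 counts, and 4.14% for Inpp5d. Within clone E3, replicate 1 had the highest level of both Enpp2 and Mme, and replicate 3 the highest level of both Rbp4 and Pmp22.

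The genes whose pattern over the 9 libraries was most like that of each member were found by Pearson's correlation of log2 CPM, as a description over points that fall into 3 lines. For Ly9 they were Icosl (r = 0.989), a costimulatory ligand, Zyx (0.985) and Tmem200b (0.973). Ly9 was at the detection limit in both clones, so its correlations rest on the step between WT cells and the clones. For Inpp5d they were Slc2a1 (0.997), the glucose transporter GLUT1, Znrf2 (0.991) and Ltv1 (0.987). For Enpp2 they were Vegfa (0.992), the angiogenic growth factor, Wdr25 (0.985) and P4ha1 (0.984), a collagen prolyl hydroxylase.

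Vegfa averaged 179 CPM in WT cells, 69.5 in clone E3 and 117 in clone E5, the same order as Enpp2 over a smaller range, and Slc2a1 averaged 228, 114 and 158 CPM. For Rbp4 the genes were Kcmf1 (0.988), Kctd13 (0.986) and Steap1 (0.986), a metalloreductase of the membrane, which averaged 87.9 CPM in WT cells, 38.8 in clone E3 and 38.4 in clone E5. For Mme they were Ppp2r5c (0.985), Mkx (0.985), a homeobox factor of tendon, and Hspa8 (0.983), and Mkx averaged 1.59, 4.29 and 6.08 CPM. For Pmp22 they were Pik3r2 (0.992), Ctxn1 (0.992) and Lamp1 (0.992), and Ctxn1 averaged 5.66, 21.4 and 14.4 CPM.

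Of 36 tested neighbours on the chromosome, 3 on each side of each member, 1 was a DEG higher and 1 lower in clone E3, and 1 was higher and 2 were lower in clone E5. Over all tested genes the shares were 5.43% and 4.39% in E3, and 2.69% and 5.52% in E5. None of the 6 neighbours of Ly9, of Inpp5d or of Rbp4 was a DEG against WT in either clone. Between the clones, Slc35g1 (log2 fold change 1.01, FDR = 0.00056) and Plce1 (1.19, FDR = 0.00544) beside Rbp4 were DEGs higher in E5. Cyp26a1 beside it was lower (-1.84, FDR = 0.0112) on at most 14 counts per library. Over all tested genes those shares were 3.49% and 7.52%. The calls of Slc35g1 and Plce1 were lost without replicate 3 of clone E3, and that of Cyp26a1 without replicate 3 of clone E5. Ccn3, a matricellular protein gene 84.9 kb from Enpp2, fell with it from 48.3 ± 2.06 CPM in WT cells to 13.4 ± 2.13 in clone E3 (log2 fold change -1.85, FDR = 1.4e-05) and 16.7 ± 1.83 in clone E5 (-1.53, FDR = 2.5e-05). It was the only neighbour called in the same direction in both clones, and between the clones its difference of 0.32 (FDR = 0.0879) did not pass the test. The other neighbours called against WT lay farther off. Gpr149, 636 kb from Mme, was higher in clone E3 (log2 fold change 1.15, FDR = 0.00037). Samd12, 936 kb from Enpp2, had no counts in clone E5 and was at least 2.79-fold lower there. Zfp286, 340 kb from Pmp22, was higher in clone E5 (2.96, FDR = 0.00203). Its level was low, 0.0628 CPM in WT cells and 0.504 in clone E5, on at most 30 counts per library.

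**Figure D5:**
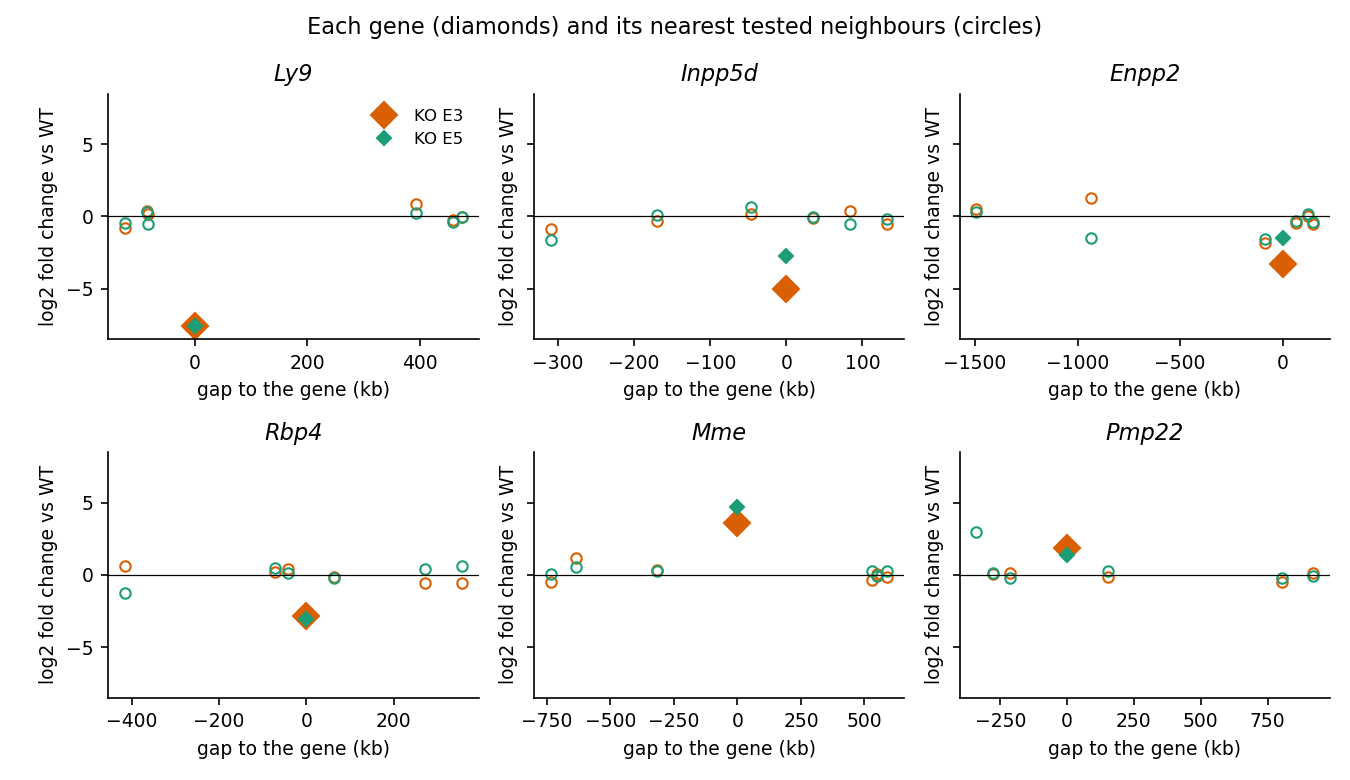
Log2 fold change against WT for each gene (diamonds at 0) and its 3 nearest tested genes on each side (circles), by the gap to the gene in kb along the chromosome, with clone E3 in orange and clone E5 in green. The 2 diamonds of Ly9, drawn at their bounds, nearly coincide; Ccn3, the circle pair 84.9 kb before Enpp2, lies at -1.85 and -1.53, and neighbours at the detection limit are drawn at their bound or, where no fold can be given, left out.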

How the data were processed

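The data are RNA-seq libraries of cultured LLC lines, 3 from WT and 3 from each of the CD47 KO clones E3 and E5, grouped by their labels. Per the submitters' processing notes and the methods, the authors used FastQC for quality control, Trimmomatic for trimming and STAR for alignment to GRCm39. What the authors deposited were raw counts per gene, neither normalized nor pooled. The counting tool, the strand option and the gene annotation behind them are not given in the sources used here, so genes that overlap others are uncertain. The library kit is directional. No per-sample column of the table was left unused.

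From the counts, genes that passed edgeR's filterByExpr, set to a count of 10 and a total of 15, were tested with edgeR (version 4.0.16, R 4.3.3), using the quasi-likelihood test after TMM scaling, with the 3 lines in 1 fit and Benjamini-Hochberg adjustment over all 14593 genes tested, since the 6 genes cannot set the spread alone. DEGs were called below an FDR of 0.05 with a log2 fold change beyond 1 in either direction. The standard error of a log2 fold change is its size divided by the square root of F. A line whose libraries all held 3 counts or fewer was taken as at the detection limit, which covers counting error only, so that folds against it are lower bounds. With 44257404 to 55095219 counts per library, counting error is small above a few CPM, and the common coefficient of variation between replicates was 14.8%. The test was tested on simulated data first.

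The 6 genes and all lists were chosen with earlier results of these data known. Besides the 6 genes and Cd47, the text names genes of the 6 pathway lists called in the same direction in both clones, up to 3 further calls per list and clone with the largest absolute log2 fold change, the 3 tested genes with the highest Pearson correlation of log2 CPM with each gene (mean log2 CPM above 1, no predicted or Riken names), and called genes among the 3 nearest tested genes on each side. Lpar1, Emp1, Ncstn, Atg16l1 and genes without counts lie outside this rule and were named after their values were seen. The lists of adipocyte, endothelial and mesenchymal markers were also summed. Gene positions are those of the count table, whose identifiers had the same coordinates as GENCODE vM39 for 99.4% of 26566 shared identifiers. Exon lengths and promoter windows came from vM39 and GRCm39.

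Alternatives were DESeq2 (version 1.42.0), upper-quartile scaling or DESeq2's size factors within edgeR, all genes without a count filter, a minimum of 10 counts per library, fits of 2 lines alone, a block for the replicate number, and the omission of single libraries.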

Additional observations from a re-analysis of the deposited data

Results flagged for a closer look

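Inpp5d, Enpp2 and Mme differed in level between the clones as well as from WT cells, by edgeR's quasi-likelihood test of clone E5 against clone E3. The difference was 2.24 on the log2 scale for Inpp5d (FDR = 5.1e-06), 1.81 for Enpp2 (FDR = 0.00121) and 1.12 for Mme (FDR = 0.00732), with every library of E5 above every library of E3. Such separation also held for Atg16l1, which was not a DEG between the clones (0.09, FDR = 0.421). Its share over all tested genes was not counted. Without replicate 3 of clone E3 the Mme difference was 0.95 (FDR = 0.00272), under the fold threshold. Inpp5d and Enpp2 were thus nearer to WT cells in clone E5, and Mme was farther from them. The genes were selected with the same clone libraries, so these FDRs are not independent of the selection. Cd47 itself also differed, at 44.6 ± 6.87 CPM in clone E3 and 17.4 ± 1.66 in clone E5 (SD, n = 3). Its part in these differences was not tested.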

How the results depend on the processing

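Under 16 alternatives, every fold change of Inpp5d, Enpp2, Rbp4, Mme and Pmp22 against WT kept its direction, as did Ly9 under the 15 that kept it, since it did not pass a filter of at least 10 counts in every library. With that filter, which also removes genes lost in 1 line, DEG calls numbered 828 in clone E3, 571 in clone E5 and 836 between the clones, and pathway calls 7, 8 and 9. Without replicate 3 of clone E3, Rbp4 differed between the clones by 0.0326 (FDR = 0.901) and Mme by 0.95 (FDR = 0.00272). With single libraries left out, the differences between the clones ranged from 2.14 to 2.36 for Inpp5d, 1.52 to 2.18 for Enpp2, -0.41 to 0.0326 for Rbp4, 0.95 to 1.44 for Mme and -0.54 to -0.37 for Pmp22. In clone E3 the RPKM of Rbp4 was 0.213 above that of Pmp22, a difference of -0.281 without replicate 3, a check added after the data were seen. DEG calls ranged from 1262 to 1583 in clone E3, 1040 to 1351 in clone E5 and 1488 to 1866 between the clones, and pathway calls from 11 to 15, 11 to 16 and 15 to 17. Ly9 could not be compared between the clones, both at the detection limit.

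Replicate numbers did not pair the libraries: deviations of same-numbered libraries correlated at -0.153 to 0.0335. With the replicate number as a block, DEG calls numbered 1370 in clone E3, 1129 in clone E5 and 1563 between the clones, and Inpp5d, Enpp2 and Mme still differed between the clones (2.24, 1.89 and 1.19).

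Depth limits Ly9 in the clones and the WT level of Mme, and each KO line being 1 clone limits every comparison with WT.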

Other observations

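Levels of some cell type markers differed among the lines. The summed level of 7 lung epithelial markers, carried almost entirely by the keratin genes Krt8 and Krt18, was 451 to 459 CPM in WT cells, 127 to 199 in clone E3 and 896 to 958 in clone E5. Krt8 averaged 191, 38.1 and 370 CPM and Krt18 averaged 264, 125 and 558 CPM. The 6 mesenchymal markers summed to 5961 to 6456 CPM in WT cells, 6191 to 6952 in clone E3 and 7060 to 8460 in clone E5, sums set by Vim (4166, 5480 and 6571 CPM on average) and Fn1. Their median log2 fold change was 0.68 in clone E3, with Pdgfrb a DEG higher, and -0.61 in clone E5, with Pdgfrb and Col1a1 DEGs lower and none higher. In the same lists Krt8, Krt18 and Krt19 were DEGs lower in clone E3, and Krt18 was a DEG higher in clone E5. The shares over all tested genes were 5.43% higher and 4.39% lower in E3, and 2.69% higher and 5.52% lower in E5. The 5 endothelial markers summed to 8.91 to 11.5, 17.9 to 30.8 and 16.9 to 19.5 CPM, mostly from Egfl7, and the 5 adipocyte markers to at most 0.434 CPM in any library. The part of these differences in the levels of the 6 genes was not tested.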
